A study of Mus musculus with 4 samples.

Results

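Genes of the Nodal and Activin pathway were followed in mouse embryonic stem cells that lack Suz12. The group held 9 genes, of 18193 genes named by a probe set with a single gene symbol: the ligands Nodal and Gdf3, the co-receptor Tdgf1, the inhibitors Lefty1 and Lefty2, the receptors Acvr1b and Acvr2b, and the transducers Smad2 and Smad3. They were chosen by name, and every probe set whose only symbol was one of them was taken, 17 in all. Embryonic stem cells are pluripotent cells from the early embryo, and Suz12 is needed for the activity of Polycomb repressive complex 2 (PRC2), the enzyme that adds methyl groups to a lysine of histone H3 at repressed genes. Messenger RNA was measured on 2 Affymetrix arrays of wild-type cells (WT) and on 2 of cells labelled Suz12KO. The labels state that each genotype was a pool of equal RNA amounts from 3 clones. They do not state whether the arrays of a genotype received separate pools, so all p-values measure only the spread between arrays, which may be purely technical. The strain, passage, culture medium, any feeder cells and the Suz12 allele are likewise not given in the sources used here.

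Nodal and Activin are secreted ligands of the TGF-beta superfamily. They bind a type II receptor such as Acvr2b, which activates a type I receptor such as Acvr1b (also called ALK4), and for Nodal and Gdf3 a cell-surface co-receptor such as Tdgf1 (Cripto) is needed. The receptors phosphorylate Smad2 and Smad3, which join Smad4, enter the nucleus and act with partners such as Foxh1. Lefty1 and Lefty2 are secreted inhibitors and are themselves induced by the pathway, which gives it negative feedback. In the embryo the pathway acts in the epiblast, in the formation of mesoderm and endoderm and in left-right patterning, and it is active in cultured mouse embryonic stem cells.

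Deposited values were probe set signals on a linear scale. Probe sets for bacterial spike RNA that read low in every array, taken as unused, reached 141 and 191 on the WT arrays and 195 and 174 on the other arrays. These values were taken as the level that background can reach. Suz12 itself read 1097 and 1094 on the WT arrays, against 217 and 369 on the Suz12KO arrays, and fell by 1.89 on the log2 scale (limma adjusted p = 0.00213). The remaining signal differed between the 6 Suz12 probe sets. This one and another lay above background on both Suz12KO arrays, one read 25.6 and 243, and 3 lay within background there, of which 2 were also within it in WT. Whether the probes lie in the part of the gene that is altered in these cells is not stated. Of 9 markers of embryonic stem cells other than Tdgf1, all 9 rose in Suz12KO, by 1.37-fold (Utf1) to 4.12-fold (Nanog). Their summed signal went from between 54362 and 55418 in WT to between 106680 and 108133 in Suz12KO. Dppa5a alone went from a mean of 28509 to 56157. Of 13 fibroblast markers 12 were measured: 3 fell (Col1a1, Col1a2 and Col3a1), 0 rose, 3 did not pass and 6 were too dim to be tested, Dcn and Pdgfrb among them, which lay within background on every array. Those that did not pass had log2 fold changes above 0, at 0.41 for Thy1, 0.29 for Prrx1 and 0.13 for Loxl1. Their summed signal went from between 6501 and 6749 in WT to between 2129 and 2954 in Suz12KO, with Col1a1 alone going from a mean of 2729 to 441. Of 9 primitive endoderm markers, Lama1 alone passed, as higher, 7 did not pass and 1 was too dim. Those that did not pass lay on both sides of 0, and the median log2 fold change of those tested was 0.0435. Of 8 trophoblast markers, Tfap2c alone passed, as higher, 5 did not pass and 2 were too dim. Krt7 lay below 0 and Cdx2, Hand1, Eomes and Gata3 above it, with a median of 0.631 for those tested. The trophoblast sum went from between 2365 and 2380 in WT to between 3197 and 3584 in Suz12KO. For Gapdh, whose 3' to 5' signal ratio reflects RNA quality, the ratio was 0.807 and 0.756 on the WT arrays, against 0.889 and 0.871 on the Suz12KO arrays. The same ratio for Actb was 1.15 and 1.16 on the WT arrays and 1.14 on both Suz12KO arrays. The part of these differences in the results on the pathway was not tested. In such bulk RNA, fewer cells of a type and less RNA per cell cannot be told apart.

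The comparison addressed how loss of Suz12 relates to the transcript levels of the pathway. Gdf3, Tdgf1 and Lefty2 were higher in Suz12KO, and no member fell past the test. Both Nodal probe sets read higher on both Suz12KO arrays, but only the dimmer one passed. Each gene was represented by its brightest probe set, and all 9 members were bright enough to be tested. Log2 fold changes are Suz12KO minus WT on the scale log2(signal + 16), which understates changes of dim genes, and a gene was called at a Benjamini-Hochberg adjusted p under 0.05 over all 12735 genes tested. By limma, 3 of the 9 rose and 0 fell. Of all tested genes 9.97% were called, 4.48% higher and 5.50% lower. At an unadjusted p under 0.05, 5 members were higher and 0 lower, beside 2966 of all 12735 tested genes in either direction. In 5 members both Suz12KO arrays lay above both WT arrays, in 3 both lay below, and in 1 the genotypes overlapped; such a gap was seen in 52.9% of all tested genes, in 29.0% with Suz12KO above and in 23.9% with Suz12KO below. The median log2 fold change of the 9 was 0.23, beside 0.035 for all tested genes. The members above 0 were the ligands, the co-receptor, the inhibitors and Acvr1b, and those below 0 were Acvr2b, Smad2 and Smad3.

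**Figure D1:**
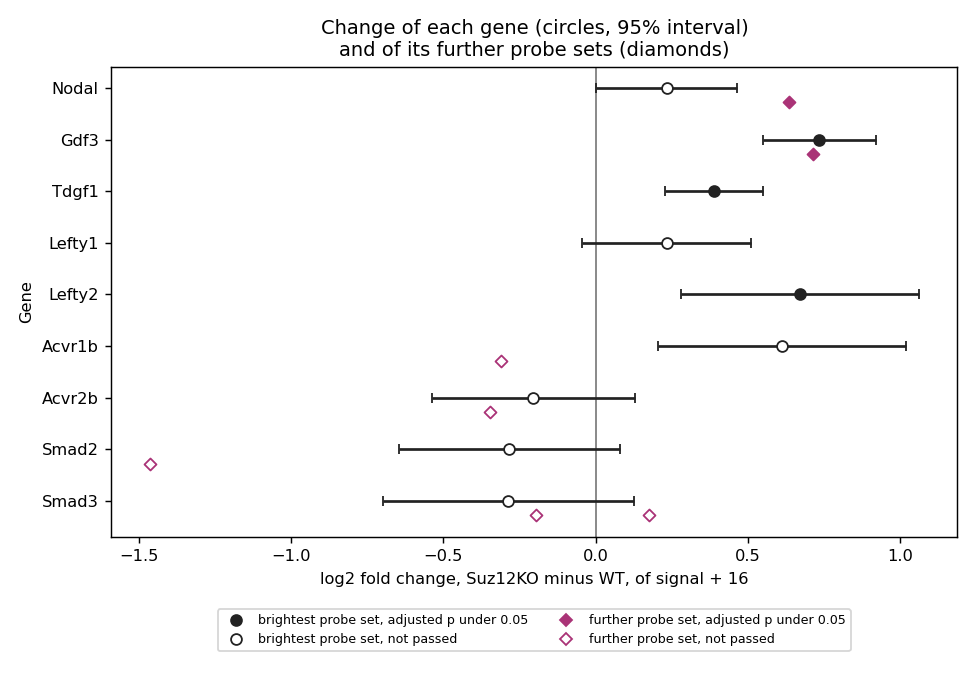
Log2 fold change of each gene between Suz12KO and WT (horizontal axis) for its brightest probe set (circles, with the 95% interval of limma) and for its further probe sets (diamonds, no interval drawn); filled symbols passed the test. Gdf3 is filled for both of its probe sets, Nodal for only one of its own, and Acvr2b, Smad2 and Smad3 lie below 0 without passing.

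Among the ligands, Gdf3 had the change with the smallest adjusted p of the group. Gdf3 encodes a ligand of the TGF-beta superfamily that is expressed in pluripotent cells and signals through Tdgf1. Its brighter probe set (1449288_at) read 2489 and 2443 on the WT arrays, against 4072 and 4155 on the Suz12KO arrays. Both Suz12KO arrays were well above both WT arrays, and arrays of a genotype lay close together. This was a log2 fold change of 0.73 (SE 0.08, limma adjusted p = 0.000563), a 1.66-fold rise. The dimmer Gdf3 probe set (1460057_at) read 667 and 629 on the WT arrays, against 1119 and 1027 on the Suz12KO arrays. The groups were again apart, and the log2 fold change was 0.71 (SE 0.17, adjusted p = 0.0343 over 24461 probe sets tested). This dimmer probe set lost its call when any 1 of the 4 arrays was left out (adjusted p 0.0610 to 0.125), whereas the brighter one kept its call each time (adjusted p 0.00182 to 0.00305).

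Nodal, the ligand that gives the pathway its name, was measured by a pair of probe sets that did not give the same call. The brighter one (1422058_at) read 2938 and 2481 on the WT arrays, against 3116 and 3239 on the Suz12KO arrays. The groups did not overlap, but the WT arrays differed by more than the gap between genotypes. It changed by 0.23 on the log2 scale (SE 0.10, 95% interval 0.0017 to 0.46, limma adjusted p = 0.212), which did not pass. The second Nodal probe set (1422057_at) read 1416 and 1438 on the WT arrays, against 2198 and 2247 on the Suz12KO arrays. Here each genotype was tight and the groups were apart, with a log2 fold change of 0.63 (SE 0.11, adjusted p = 0.00857 over all probe sets). Within each array, the second probe set minus the brighter one was -1.04 and -0.78 on the log2 scale for WT, against -0.50 and -0.52 for Suz12KO. The difference shifted by 0.40 with no overlap between genotypes, although with 2 arrays against 2 an exact permutation test cannot give a p below 0.333. Averaging both probe sets gave Nodal a log2 fold change of 0.43 with an adjusted p of 0.0413. The sources used here do not say which part of the transcript each probe set reads. Without WT replicate 2, which held the lower of the WT values, the log2 fold change of the brighter probe set was 0.11, and without WT replicate 1 it was 0.35.

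**Figure D2:**
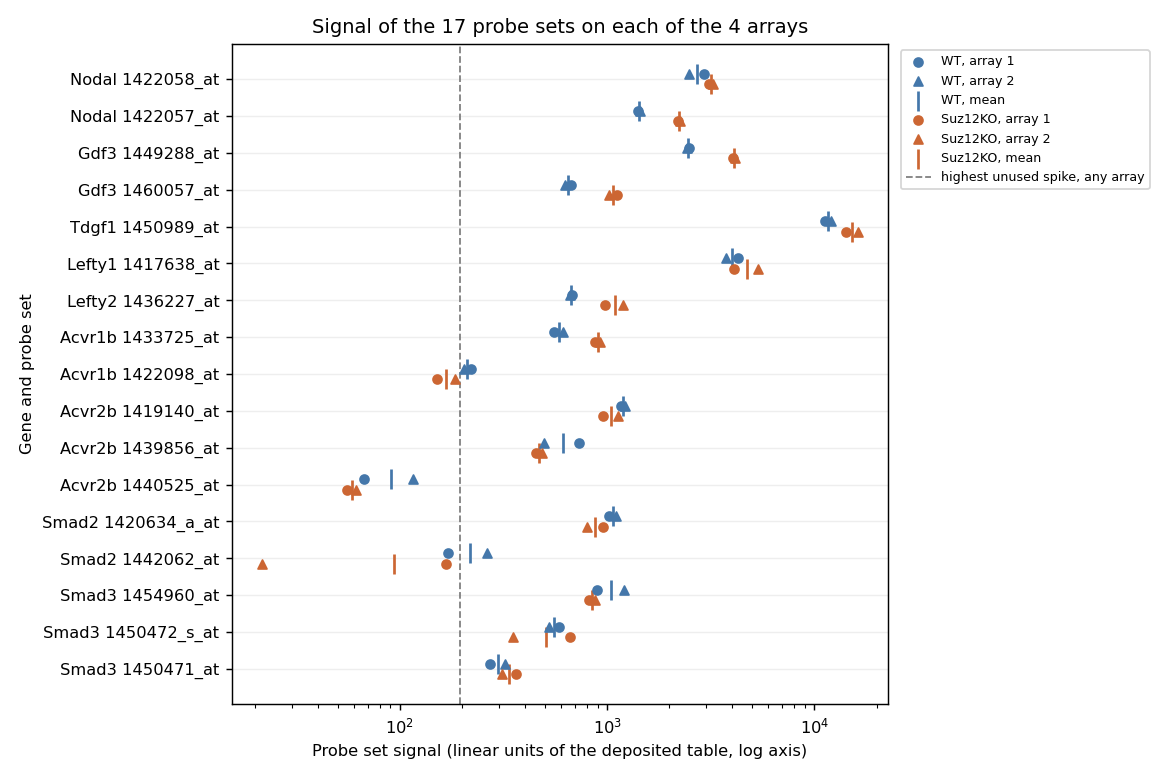
Signal of the 17 probe sets (log axis) on each of the 4 arrays, with a vertical tick at each genotype mean and a dashed line at the highest unused spike of any array, 195. The Gdf3, Tdgf1 and Lefty2 probe sets and the second Nodal probe set show Suz12KO clear of WT, whereas Lefty1 and 2 of the Smad3 probe sets overlap.

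Tdgf1, the membrane-anchored co-receptor for Nodal and Gdf3, rose by a smaller amount. Its single probe set read 11286 and 11990 on the WT arrays, against 14278 and 16233 on the Suz12KO arrays. Both Suz12KO arrays were above both WT arrays, although the Suz12KO arrays differed from each other by more than the WT arrays did. The log2 fold change was 0.39 (SE 0.07, 95% interval 0.23 to 0.55, limma adjusted p = 0.00845), a 1.31-fold rise. The call held whichever array was left out (adjusted p from 0.00219 to 0.0430). Centring each array on its median lowered it to 0.22 (adjusted p = 0.171), which ended the call. Tdgf1 is itself a marker of undifferentiated embryonic stem cells, and the 9 other such markers rose with it, as given above.

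The inhibitors Lefty1 and Lefty2 are close relatives. Lefty2 read 680 and 665 on the WT arrays, against 976 and 1195 on the Suz12KO arrays. The WT arrays nearly coincided and the Suz12KO arrays lay above them, with the second well above the first. The log2 fold change was 0.67 (SE 0.17, 95% interval 0.28 to 1.06, limma adjusted p = 0.0405), a 1.59-fold rise. This call was close to the threshold: leaving out Suz12KO replicate 2 or either WT array ended it (adjusted p 0.107 to 0.161), and over all 24461 probe sets the adjusted p was 0.0533. Centring (0.50), testing with no filter and the fit on means of probe sets also ended it (adjusted p 0.0584 to 0.113).

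Lefty1 read 4267 and 3739 on the WT arrays, against 4117 and 5360 on the Suz12KO arrays. One Suz12KO array lay between the WT arrays and the other above both, so the groups overlapped. The log2 fold change was 0.23 (SE 0.12, 95% interval -0.04 to 0.51, adjusted p = 0.298) and did not pass. Its value moved with single arrays, to 0.04 without Suz12KO replicate 2 and to 0.42 without Suz12KO replicate 1, where it passed (adjusted p = 0.0363). Within each array, Lefty2 minus Lefty1 was -2.62 and -2.46 for WT, against -2.06 and -2.15 for Suz12KO, on the log2 scale. The difference shifted by 0.44 towards Lefty2 with no overlap between genotypes, where the smallest exact permutation p is again 0.333. Whether the probe sets of these relatives detect each other's transcripts was not tested.

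The receptors had fold changes of opposite sign, and neither passed. Acvr1b, the type I receptor that phosphorylates Smad2 and Smad3, read 555 and 612 on the WT arrays, against 875 and 926 on the Suz12KO arrays by its brighter probe set (1433725_at). These groups were clearly apart, and the log2 fold change of 0.61 (SE 0.18, 95% interval 0.20 to 1.02) just missed the threshold (limma adjusted p = 0.0672). The second Acvr1b probe set (1422098_at) read 219 and 203 on the WT arrays, against 151 and 184 on the Suz12KO arrays. It lay close to the unused spikes and had the opposite sign (-0.31, SE 0.46, adjusted p = 0.772). With both probe sets averaged the Acvr1b log2 fold change was 0.15. Within each array, the second probe set minus the brighter one shifted by -0.92 for Acvr1b, without overlap between genotypes. The smallest exact permutation p is again 0.333, and the nearness of the second probe set to background limits this value. The like shift was 0.40 for Nodal, given above, and -0.02 for Gdf3, where the genotypes overlapped.

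Acvr2b, a type II receptor that binds Activin and Nodal, read 1167 and 1227 on the WT arrays, against 953 and 1126 on the Suz12KO arrays. Both Suz12KO arrays were lower, but the genotype means differed by less than the Suz12KO arrays differed from each other, with a log2 fold change of -0.21 (SE 0.15, adjusted p = 0.450). The second Acvr2b probe set (1439856_at) read 730 and 495 on the WT arrays, against 453 and 487 on the Suz12KO arrays, a log2 fold change of -0.35 (adjusted p = 0.500). The remaining one (1440525_at) read 56 to 115 and lay within background on all 4 arrays, so it was not tested. All Acvr2b probe sets, the untested one included, had both Suz12KO arrays below both WT arrays. Among all tested probe sets 23.7% did.

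Smad2 and Smad3, the receptor-regulated transducers, had log2 fold changes below 0 that did not pass. Smad2 read 1026 and 1106 on the WT arrays, against 954 and 798 on the Suz12KO arrays by its brighter probe set (1420634_a_at), with no overlap. The change was -0.28 on the log2 scale (SE 0.16, 95% interval -0.65 to 0.08, limma adjusted p = 0.336). The second Smad2 probe set (1442062_at) read 171 and 262 on the WT arrays, against 166 and 21.5 on the Suz12KO arrays. Since both Suz12KO values lay within background, the averaged signals give only a bound, at least 1.15-fold lower in Suz12KO. WT replicate 1 read close to Suz12KO replicate 1. The fitted 95% interval ran from -3.36 to 0.44 on the log2 scale, so a fall was not established (limma adjusted p = 0.385). This probe set stood for Smad2, at a fitted -1.46, where probe sets whose names carry suffix a, s or x were left out.

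Smad3 read 891 and 1201 on the WT arrays, against 814 and 878 on the Suz12KO arrays by its brightest probe set (1454960_at). The lower WT array was near the Suz12KO arrays, and the log2 fold change was -0.29 (SE 0.18, 95% interval -0.70 to 0.12, adjusted p = 0.390). Without WT replicate 2 it was -0.07, and without WT replicate 1 it was -0.50. The further Smad3 probe sets overlapped between genotypes. One (1450472_s_at) read 587 and 527 on the WT arrays, against 663 and 351 on the Suz12KO arrays, with a log2 fold change of -0.20 that turned to 0.25 without Suz12KO replicate 2. The other (1450471_at) read 273 and 321 on the WT arrays, against 364 and 310 on the Suz12KO arrays, a log2 fold change of 0.17 (adjusted p = 0.821) that shrank to 0.0062 after centring. Counted over probe sets, 4 of the 17 rose and 0 fell, 12 did not pass and 1 was too dim. At an unadjusted p under 0.05 there were 6 higher and 0 lower, beside 4857 of all 24461 tested probe sets in either direction. Of all tested probe sets 6.81% were called, 2.82% higher and 3.99% lower. Both Suz12KO arrays lay above both WT arrays for 7 member probe sets and below them for 7, and 3 overlapped. The 7 below include the Acvr2b probe set that was too dim to be tested. Of all tested probe sets, 26.3% had Suz12KO above and 23.7% had it below.

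Promoter sequence was available in the RefSeq table (GRCm38.p6) for 5 of the 9 members, Nodal, Tdgf1, Acvr1b, Acvr2b and Smad3. Entries for Gdf3, Lefty1, Lefty2 and Smad2 were missing. In embryonic stem cells PRC2 is found mostly at promoters rich in CpG dinucleotides, so CpG was counted in the 250 bases before each start. The sequences of Nodal (chr10:61417722-61417971, plus strand), Tdgf1 (chr9:110946159-110946408, minus strand) and Acvr1b (chr15:101173822-101174071, plus strand) are shown 5' to 3' because they span the range from CpG-poor to CpG-rich among members whose signal was higher in both Suz12KO arrays. Capitals mark each CpG.
Nodal: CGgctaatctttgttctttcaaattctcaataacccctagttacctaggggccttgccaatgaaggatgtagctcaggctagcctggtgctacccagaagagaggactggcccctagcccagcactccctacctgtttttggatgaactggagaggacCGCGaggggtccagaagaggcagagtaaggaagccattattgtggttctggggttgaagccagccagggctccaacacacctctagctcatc
Tdgf1: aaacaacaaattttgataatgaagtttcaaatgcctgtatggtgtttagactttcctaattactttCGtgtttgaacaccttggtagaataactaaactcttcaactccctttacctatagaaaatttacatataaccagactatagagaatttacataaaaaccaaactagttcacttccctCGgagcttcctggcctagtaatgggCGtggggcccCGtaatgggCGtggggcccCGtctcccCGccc
Acvr1b: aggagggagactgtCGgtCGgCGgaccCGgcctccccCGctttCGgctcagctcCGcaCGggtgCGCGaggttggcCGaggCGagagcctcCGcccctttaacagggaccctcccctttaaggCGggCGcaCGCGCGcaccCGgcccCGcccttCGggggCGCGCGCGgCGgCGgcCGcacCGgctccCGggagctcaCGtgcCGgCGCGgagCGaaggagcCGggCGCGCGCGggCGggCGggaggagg
The Nodal window held 3 CpG, the Tdgf1 window 7 and the Acvr1b window 42. The median of 32851 RefSeq promoters was 6, and 29.0%, 53.7% and 99.1% of them held fewer CpG than these windows, in that order. The windows of Acvr2b and Smad3, members with lower signal, held 24 and 22. Of the 5 members with sequence, only Tdgf1 was called by its brightest probe set, with a promoter near the median CpG content. The most CpG-rich promoter was that of Acvr1b, which just missed the threshold. Gdf3 and Lefty2, the other called members, had no sequence. Whether CpG content relates to the changes was not tested. Neither the FOXH1 motif AATNCACA, nor the SMAD palindrome GTCTAGAC, nor the octamer ATGCAAAT occurred on either strand in any of the 5 windows. They occurred in 3.18%, 0.167% and 1.60% of all promoters, and their absence describes these windows only.

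Other genes of the pathway were taken from a list of 42 by role. Tgfb2 and Skil fell, and Pcsk6 and Smad7 rose. Of 39 genes measured, 7 were too dim to be tested and 28 did not pass; the remaining 3 listed genes were not analysed here. The 32 tested had a median log2 fold change of 0.017, beside 0.035 for all tested genes. Of these 32, 2 were called higher and 2 lower, beside 4.48% and 5.50% of all tested genes.

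Tgfb2, a TGF-beta ligand that uses other receptors than Nodal, had the largest change on the list. It read 1728 and 1540 on the WT arrays, against 251 and 323 on the Suz12KO arrays. The groups were far apart, with a log2 fold change of -2.45 (SE 0.20, limma adjusted p = 9.13e-05). All 3 further Tgfb2 probe sets had both Suz12KO arrays below both WT arrays, and 2 of them passed. Of the 6 fibroblast markers tested, the 3 collagens fell with it and Thy1, Prrx1 and Loxl1 did not, as given above, and their part in the Tgfb2 change was not tested. Pcsk6, a protease that cleaves the Nodal precursor to its active form, read 595 and 301 on the WT arrays, against 929 and 1392 on the Suz12KO arrays. All Suz12KO values were higher but both genotypes were spread, with a log2 fold change of 1.39 (SE 0.32, adjusted p = 0.0233). Pcsk6 lost its call without WT replicate 2 (0.92, adjusted p = 0.0693) or Suz12KO replicate 2 (1.10, adjusted p = 0.0941), and in the fit on means of probe sets (adjusted p = 0.0752). Furin, a related protease and the brightest ligand or processing gene that did not pass, had a log2 fold change of -0.71 (adjusted p = 0.0580).

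Among 15 further inhibitors, 13 were tested, of which 1 rose and 1 fell. Skil, a co-repressor that binds Smad proteins, read 4560 and 5244 on the WT arrays, against 2519 and 2886 on the Suz12KO arrays. That is a clear separation, with a log2 fold change of -0.86 (SE 0.10, limma adjusted p = 0.000793). A dimmer Skil probe set read 408 and 381 on the WT arrays, against 292 and 266 on the Suz12KO arrays, lower too but without passing (adjusted p = 0.439). Smad7, the inhibitory Smad that blocks the type I receptor, read 1589 and 1882 on the WT arrays, against 2446 and 2356 on the Suz12KO arrays. It had a log2 fold change of 0.47 (SE 0.11, adjusted p = 0.0326), a rise that lost its call after centring (0.30, adjusted p = 0.160) or when WT replicate 1 or either Suz12KO array was left out (adjusted p 0.0633 to 0.181). With both Smad7 probe sets averaged it was 0.15 (adjusted p = 0.761). The second Smad7 probe set, near background, overlapped between genotypes at 214 and 244 in WT against 278 and 144 in Suz12KO. Ppm1a, a Smad phosphatase and the brightest inhibitor that did not pass, had a log2 fold change of 0.080.

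By limma, 0 of 6 further receptors and co-receptors were called, with 1 at an unadjusted p under 0.05. That was Tgfbr3, named after its values were seen, which lay within background in WT and was at least 2.11-fold higher in Suz12KO (adjusted p = 0.0625). Tgfbr1, the brightest of them, had a log2 fold change of -0.16. Of 4 further transducers and partners 0 were called, with Smad4, the shared partner of Smad2 and Smad3, at an unadjusted p of 0.0323 (log2 fold change -0.25, adjusted p = 0.165). Of 8 listed target genes 6 were measured and 2 were bright enough to be tested. The brighter, Eomes, a T-box factor of early mesoderm and endoderm, had a log2 fold change of 0.54 (adjusted p = 0.346), and 0 were called at an adjusted p or at an unadjusted p under 0.05. The targets Gsc, Foxa2 and Fgf8, named after their values were seen, lay within background on all 4 arrays.

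**Figure D3:**
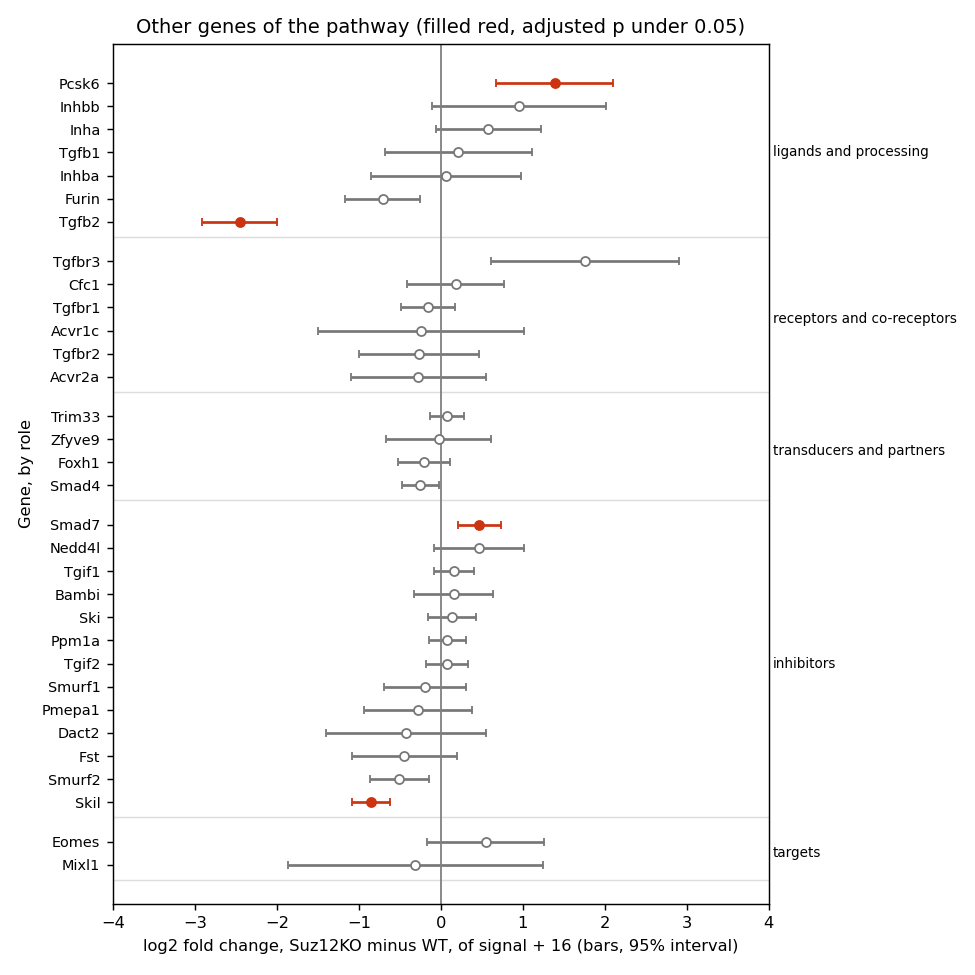
Log2 fold change between Suz12KO and WT (horizontal axis, bars are 95% intervals of limma) of the 32 other pathway genes tested, ordered by role. The filled symbols are Pcsk6 and Smad7 on the right and Tgfb2 and Skil on the left; the other 28 did not pass.

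Likeness to the secreted and membrane-anchored members was measured as the Euclidean distance over the 4 arrays between log2 values set against the WT mean. The nearest gene to Gdf3 was Mtf2, a PRC2 cofactor, at a distance of 0.0365, with a log2 fold change of 0.76, followed by Osbpl2 and L3mbtl2. The nearest to Nodal were Grb7 (0.0203), Ngdn and Gfm2, and to Tdgf1 Ubl3 (0.0299), Pfdn6 and Rasgrp2. For Lefty1 they were Fbln2 (0.0463), Zfp36l2 and Chic1, and for Lefty2 Slc37a4 (0.0382), Enah and Bckdha. With 4 arrays and 12735 genes such near matches describe shape only.

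The direction of all 9 members was the same under each of the 15 alternative ways of processing, whereas the calls were not. The filters, the eBayes variants and the replicate block leave a log2 fold change unchanged, so their agreement in direction was fixed in advance. The mean of probe sets likewise cannot move Tdgf1, Lefty1 or Lefty2, which have a single probe set each. Leaving out probe sets with suffix s, x or a changed the value of Smad2 only. The deposited values had been set to the same trimmed mean on every array, and centring on the array median instead moved the median of all tested genes from 0.035 to -0.13. It left Gdf3 as the only called member (log2 fold change 0.57, adjusted p = 0.00336) and moved Nodal and Lefty1 to 0.07 each. Gdf3 passed in 14 of the 15 alternatives, Tdgf1 in 13 and Lefty2 in 8. Without a dependence of variance on signal level 0 members were called by limma, with 3 at an unadjusted p under 0.05.

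**Figure D4:**
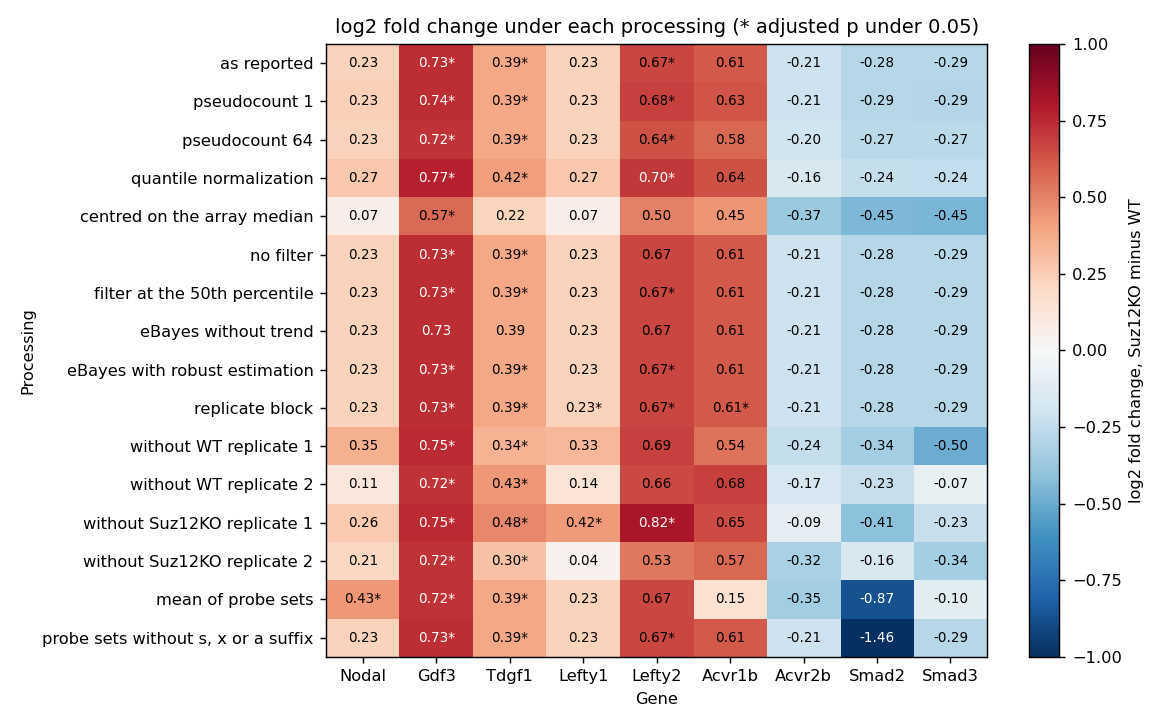
Log2 fold change between Suz12KO and WT of each gene (columns, coloured from blue for lower to red for higher) as reported and under the 15 alternatives (rows); an asterisk marks an adjusted p under 0.05. Gdf3 carries an asterisk in every row but that without a variance trend, and Acvr2b, Smad2 and Smad3 carry none.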

How the data were processed

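Per the series' design text, arrays were hybridised and scanned by the manufacturer's method. What the authors deposited is a linear signal (intensity) for each of 45101 probe sets. How probes were summarised is not stated. The mean without the lowest and highest 2% was 500.003 in every array, so the deposited intensity values had been scaled, which hides any shift common to all transcripts. Array number limits the precision.

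By GEO's platform annotation, 34945 probe sets named 1 gene, 932 several and 9160 none, and 64 were controls. Values were taken as log2(signal + 16). The brightest probe set represented each gene, and the dimmest 30% of genes by mean log2 level were not tested. Genotypes were compared with limma 3.58.1 in R 4.3.3 (two-sided; lmFit, then eBayes with trend; Benjamini-Hochberg over all features); probe sets were fitted likewise. The alternatives are given in the closing section. Background was the highest of 27 unused spike probe sets; a genotype with neither array above it has only a bound, given as at least N-fold. The procedure was also run on simulated data whose variances followed its own fitted trend, so that run cannot test the trend. The planted changes were larger than those of the called members. Figures used matplotlib 3.10.9.

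The members, lists, tests and alternatives were chosen with earlier results of these data known. Named were all members, other pathway genes past the test, per role the brightest that did not pass, and the 3 genes most like each secreted or membrane-anchored member. Tgfbr3, Gsc, Foxa2, Fgf8 and the members' neighbours were named after their values were seen.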

Additional observations from a re-analysis of the deposited data

How the results depend on the processing

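Results were recomputed with a pseudocount of 1 or 64, quantile normalization, centring, no filter or the 50th percentile, eBayes without trend or robust, the replicate number as a block, each array left out, and, for genes, the mean of probe sets or leaving out those with suffix s, x or a. Without trend 0 genes were called by limma, with 2332 at an unadjusted p under 0.05; members, their probe sets and other pathway genes also went to 0 calls, with 3, 5 and 8 at that p. Same-numbered arrays shared only a number (correlation of deviations 0.0154 across genes); with the replicate block 2098 genes, 5 members and 7 other pathway genes were called, in place of 1270, 3 and 4. The mean of probe sets gave 611 genes. Centring gave 1 member and 2 member probe sets, and lowered the share of calls that were higher from 44.9% to 19.1%. Leaving out 1 array gave 798 to 1196 genes, the lowest without WT replicate 2, 2 to 4 members, 2 to 4 member probe sets and 2 to 4 other pathway genes, the lowest of the last pair of counts without Suz12KO replicate 2. The log2 fold change of Smad3 probe set 1450472_s_at ranged from -0.64 to 0.25 without 1 array, reversed without Suz12KO replicate 2. The cause of these shifts was not tested. Signal near background limits the second probe sets of Acvr1b and Smad2 and most target genes.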

Other observations

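The protein-coding genes next to the members in the GRCm38.p6 annotation were 17 in number, of which 13 were tested, 3 were called higher and 1 lower, beside 9.97% of all tested genes called in either direction. They were looked up after the members' values had been seen. Dppa3, a maternal factor also expressed in embryonic stem cells and the neighbour of Gdf3, read 1395 and 1442 on the WT arrays, against 2211 and 2052 on the Suz12KO arrays, which is 0.58 on the log2 scale (limma adjusted p = 0.00983). Lrrc2, the neighbour of Tdgf1, read 172 and 160 on the WT arrays, against 642 and 494 on the Suz12KO arrays (1.67, adjusted p = 0.0129). Smad6, an inhibitory Smad of the BMP branch and the neighbour of Smad3, read 267 and 275 on the WT arrays, against 593 and 536 on the Suz12KO arrays (1.02, adjusted p = 0.0479). Eif4ebp2, an inhibitor of translation next to Nodal, read 4470 and 4318 on the WT arrays, against 3322 and 3195 on the Suz12KO arrays (-0.43, adjusted p = 0.00831). The other neighbours of Gdf3 and Nodal, Apobec1 (0.82, adjusted p = 0.461) and Pald1 (0.59, adjusted p = 0.110), did not pass.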
